A study of Homo sapiens with 27 samples.

Results

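The genes described here are 50 factors of the nucleolus that process ribosomal RNA (rRNA) and build the ribosomal subunits, and they were measured by RNA-seq in U937, a human myeloid leukaemia cell line. Their symbols were matched by name to the Ensembl identifiers of the deposited table through GENCODE release 44, and 50 of the 50 were found among its 57905 genes. Matrine is a plant alkaloid, and the expression profiling addressed whether it lowers transcription that depends on c-Myc. The groups are control cells (the study's vehicle was water), and cells given matrine at 0.8 mg/ml, either for 30 min or for 24 h, with 3 libraries each and 9 in all. All groups are the same cell line, with no genetic change named, grown in the same medium. The same 3 control libraries serve both times, and the control's own time in culture is not given in the sources used here, so treatment for 24 h and time in culture cannot be told apart. HL-60 and K562 libraries of the series are not analysed here.

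A ribosome starts as a long precursor rRNA that RNA polymerase I transcribes in the nucleolus. Box C/D small nucleolar ribonucleoproteins (snoRNPs) methylate this precursor and box H/ACA snoRNPs change chosen uridines to pseudouridine. The small subunit processome, a large complex of modules (UTP-A, UTP-B and others) around the U3 snoRNA, folds and cuts the part that becomes the small subunit, and a separate set of GTPases, helicases and scaffold proteins matures the large subunit. Genes of this kind are broadly expressed in dividing cells, and many of them are textbook targets of c-Myc, which binds the E-box sequence CACGTG. The members were split by role into 9 subgroups, with 3 box C/D core proteins, 4 box H/ACA core proteins, 3 abundant nucleolar proteins, 6 UTP-A subunits, 5 UTP-B subunits, 4 proteins of the MPP10 and U3 module, 8 other processome proteins, 5 late small subunit factors and 12 large subunit factors.

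Since the members moved together, promoter windows are shown first for 5 of them, chosen because they hold an E-box before a RefSeq start. The levels below can then be read against these letters. By GENCODE bounds the windows of DDX21, LYAR and UTP4 lie inside the gene. The window of NOP10 lies partly inside its gene, and that of UTP20 lies upstream. The windows come from RefSeq (GRCh38.p14) and are the 80 bases before the annotated start, written 5′ to 3′ on the strand of the gene, with the E-box CACGTG and the ETS-type motif CCGGAAG, searched on both strands, in capitals. DDX21, LYAR and UTP20 were among the members that fell most at 24 h, UTP4 stood at 49.5% of control, and NOP10 is the member whose level moved least. DDX21 and LYAR have 2 annotated starts each, and the window shown is the one with an E-box. The other start of DDX21 has CCGGAAG and no E-box.
DDX21, chr10:68956567-68956646, plus strand: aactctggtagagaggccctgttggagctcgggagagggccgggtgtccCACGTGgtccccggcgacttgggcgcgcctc
LYAR, chr4:4290022-4290101, minus strand: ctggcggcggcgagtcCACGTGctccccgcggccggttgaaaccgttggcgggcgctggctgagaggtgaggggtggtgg
UTP20, chr12:101280025-101280104, plus strand: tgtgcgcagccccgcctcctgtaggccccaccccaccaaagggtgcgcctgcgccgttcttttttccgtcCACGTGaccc
UTP4, chr16:69132569-69132648, plus strand: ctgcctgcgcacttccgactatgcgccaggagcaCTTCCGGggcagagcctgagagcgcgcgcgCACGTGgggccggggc
NOP10, chr15:34343137-34343216, minus strand: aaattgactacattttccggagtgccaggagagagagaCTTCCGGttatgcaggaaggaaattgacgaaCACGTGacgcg

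An E-box thus stands before a RefSeq start of NOP10 as well as before those of members that fell. In all, 43 of the members have at least 1 RefSeq window of 300 bases, from 250 before to 50 after the start, and 6 of these have more than 1. A gene was counted when any of its windows held the motif, and 23 of the 43 members (53.5%) hold CACGTG, which reads the same on both strands. The same holds for 8.77% of all 27305 genes with a window, for 13.3% of the 8218 protein-coding genes tested at 24 h that have a window, and for 24 of 100 other assembly genes (24%). The members' windows hold 26 E-boxes, of which 21 begin within 50 bases of the start on either side. Most of the 26 begin after the RefSeq start, while the windows printed above lie before it. By GENCODE bounds most of the printed windows also lie inside the gene. The position against the RefSeq start therefore does not separate transcribed from untranscribed sequence. CCGGAAG, searched on both strands, is held by 14 of the 43 members (32.6%), by 25.2% of the protein-coding genes tested and by 45 of the 100 other assembly genes (45%). The E-box variant CACGCG, on both strands, is held by 9 of the 43 members (20.9%), by 23.2% of the protein-coding genes tested and by 35 of the other assembly genes (35%). The members with no window in the RefSeq table were NOP58, NOLC1, MPHOSPH10, DCAF13, RRP12, RRS1 and RRP1B. A match describes the letters only, and a window without a match says nothing about binding of a factor.

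Members with and without an E-box covered overlapping ranges of change at 24 h. The median log2 fold change was -0.91 over the 23 members with an E-box and -0.97 over the 20 without, and the ranges were -1.54 to -0.09 and -1.49 to -0.42. Both sets are small and share the same 6 libraries, so these medians are a description.

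The total count per library lay between 17314931 and 21930018, and a single member received from 338 to 44554 counts in a library. Exons of 22 members overlap those of another gene of the table, 11 of them by over 10% of their exon bases and 2 on the same strand, and counting by strand is not stated, so reads there cannot be assigned for certain. The label of the cells was checked against marker genes. Of 10 myelomonocytic markers, 9 had a mean above 1 FPKM (a level per length of the gene and per library total), the exception being CD68. Of 7 erythroid and megakaryocytic markers 6 stayed below 1 FPKM in every library, and of 5 lymphoid markers 3 were at 0. The summed level of the myelomonocytic markers was 776 to 814 FPKM in the control, 778 to 813 at 30 min and 1009 to 1022 at 24 h. The list did not move as 1. At 24 h AZU1, ITGB2, CD4, CSF3R and PTPRC lay above all controls, as did CD68 at under 1 FPKM. LYZ, SPI1 and CEBPA lay below all controls. CEBPA already lay below all controls at 30 min, with 30.0, 29.5 and 34.0 FPKM against 38.7, 43.9 and 40.2 FPKM. The others overlapped the control at 30 min, so their shift, like that of the members, was seen at 24 h only. When between these times each gene changed was not measured. The part of these marker changes in the result was not tested.

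Matrine at 24 h was accompanied by lower mRNA of nearly the whole set, while 30 min was not. Of the 50 members, 47 were down-regulated at 24 h and 0 were up-regulated in edgeR's quasi-likelihood test. A call needed a Benjamini-Hochberg adjusted p under 0.05 together with a difference of 1.5-fold or more. The background was 11.2% of the 12035 genes tested called lower and 15.1% called higher. The median log2 fold change of the members was -0.95, against 0.01 over all genes tested, with a range from -1.54 for DDX21 to -0.09 for NOP10. All 50 estimates were below 0, and DESeq2 and limma called 0 members higher as well. For 49 of the 50 members every 24 h library lay below every control library, as it did for 31% of all genes tested. At least 2-fold lower by edgeR's log2 fold change were 20 of the members, against 2.95% of all genes tested. Percentages of control are ratios of mean FPKM, without edgeR's scaling between libraries, and by these 17 members stood at or below 50%. These are bulk values relative to the rest of the mRNA, so that fewer cells expressing a gene and less RNA of it per cell cannot be told apart.

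**Figure D1:**
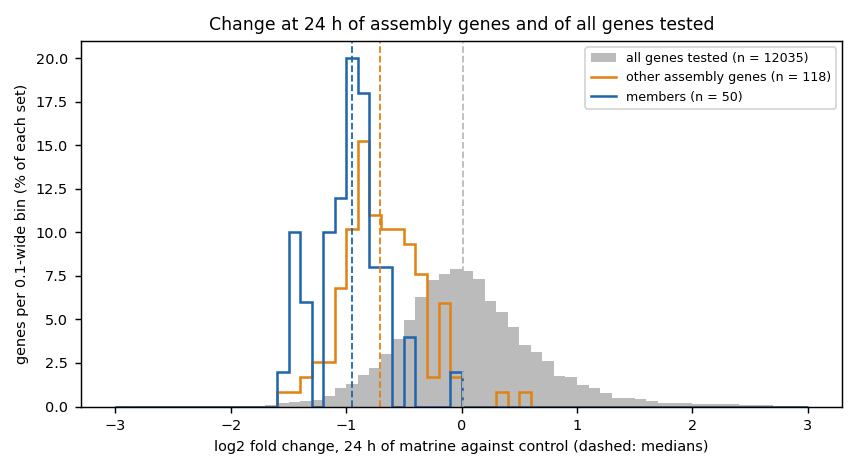
Share of each gene set, in percent, by log2 fold change at 24 h of matrine against control in bins 0.1 wide, for all 12035 genes tested (grey), 118 other assembly genes (orange) and the 50 members (blue). The dashed medians stand at 0.01, -0.71 and -0.95, and 37 of all genes lie outside the range plotted.

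The 9 libraries separated into 2 levels over the set. The geometric mean over the 50 members was 42.1, 41.6 and 42.0 FPKM in the control libraries, 42.1, 42.4 and 40.5 FPKM after 30 min, and 22.0, 22.1 and 22.1 FPKM after 24 h. The 24 h libraries lay well below the other 6, which overlapped each other. As a share of all counts, the members took 1.26% ± 0.0132 (SD, n = 3) in the control, 1.27% ± 0.0417 after 30 min and 0.675% ± 0.00224 after 24 h. Per member, the 24 h level stood at 35.6% to 97.4% of the control mean, with a median of 53.3%.

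**Figure D2:**
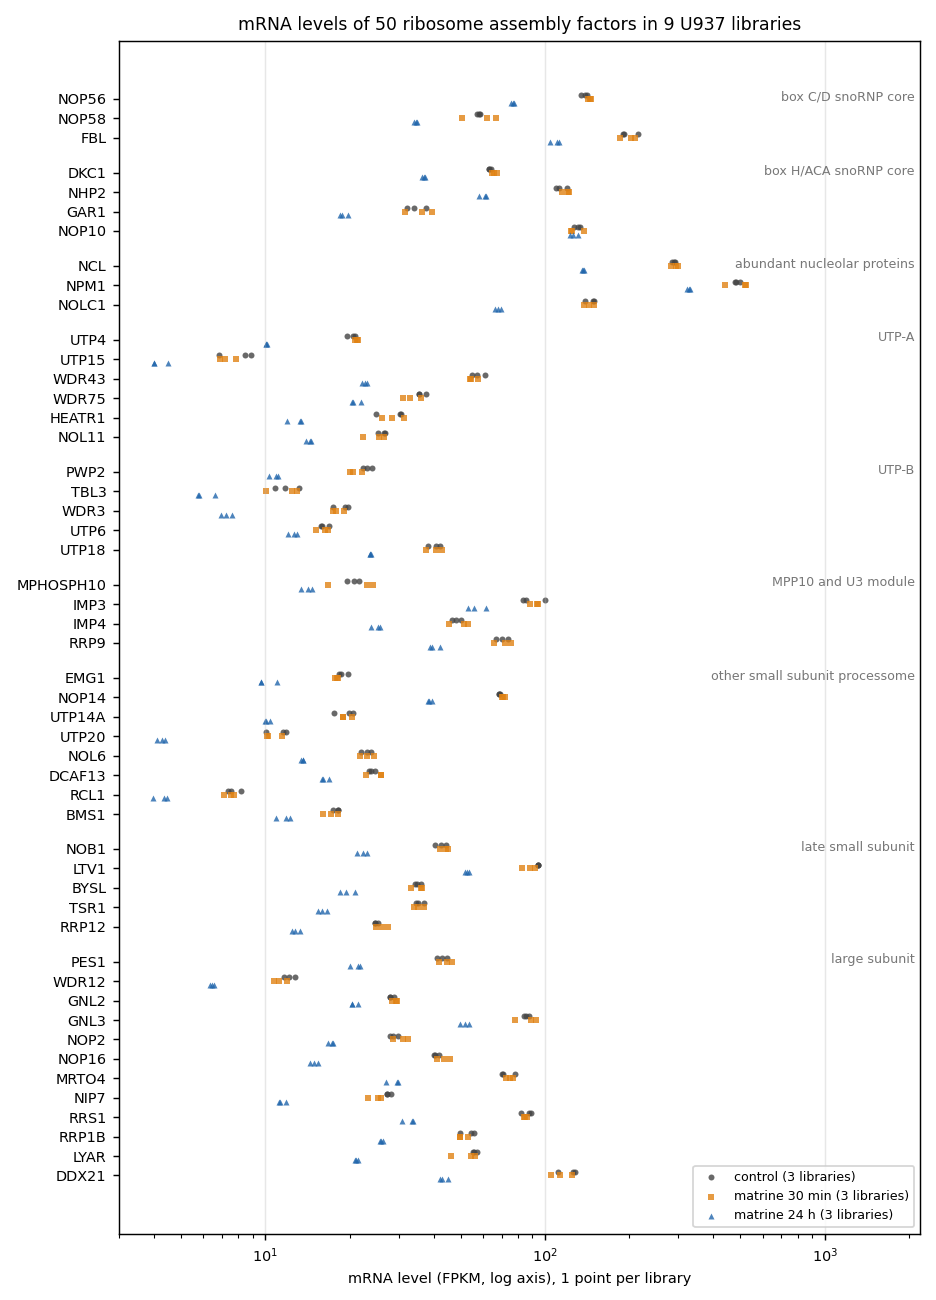
Level in FPKM on a log axis of each of the 50 members in each of the 9 libraries, with 1 point per library, grouped by role. The 24 h points (blue triangles) lie left of all control points (grey circles) for 49 members, and the exception is NOP10.

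The core proteins of the box C/D snoRNP carry out methylation of the ribose of rRNA. Fibrillarin (FBL, ENSG00000105202), the methyltransferase itself, stood at 190, 214 and 192 FPKM in the control, at 209, 186 and 204 FPKM after 30 min and at 104, 112 and 111 FPKM after 24 h. All 24 h libraries of FBL were lower than the rest, and the log2 fold change against control was -0.92 ± 0.06 (SE, adjusted p = 1.26e-10). NOP56 (ENSG00000101361), a scaffold on which the snoRNA is held, had 134, 139 and 141 FPKM in the control, 144, 146 and 142 FPKM after 30 min and 76.7, 75.8 and 77.3 FPKM after 24 h. Its 24 h values were the lowest and the closest to each other, with a log2 fold change of -0.90 ± 0.05 (adjusted p = 2.41e-12). NOP58 (ENSG00000055044), the scaffold that pairs with NOP56, had 58.7, 56.9 and 58.1 FPKM in the control, 61.9, 66.5 and 50.3 FPKM after 30 min and 34.9, 34.1 and 34.5 FPKM after 24 h. The 30 min libraries of NOP58 scattered around the control while the 24 h libraries lay below both groups, with a log2 fold change of -0.80 ± 0.07 (adjusted p = 8.28e-09). The mRNA ratio of NOP56 to FBL in FPKM was 0.696 ± 0.0432 in the control and 0.704 ± 0.0303 at 24 h, and that of NOP58 to FBL was 0.292 ± 0.0237 and 0.317 ± 0.0163 (SD, n = 3). NOP58 to NOP56 went from 0.420 ± 0.0153 to 0.450 ± 0.00464, with every 24 h library above every control library.

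Several members also carry snoRNAs in their introns, so the gene that makes a guide RNA's protein partner can make the guide RNA too. In GENCODE 44, 8 members host 26 snoRNA genes, and 3 box C/D snoRNAs are shown here for NOP56, NOP58 and NCL, with box C (TGATGA) and box D (CTGA) in capitals as read from the GENCODE transcript sequences in DNA letters.
SNORD57, in NOP56: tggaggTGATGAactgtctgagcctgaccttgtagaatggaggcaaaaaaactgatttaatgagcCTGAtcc
SNORD11, in NOP58: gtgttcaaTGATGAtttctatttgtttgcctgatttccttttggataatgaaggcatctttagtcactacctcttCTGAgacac
SNORD82, in NCL: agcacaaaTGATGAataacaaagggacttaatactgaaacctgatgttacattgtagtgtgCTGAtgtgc

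The libraries do not measure these short RNAs. Of the hosted snoRNAs 24 are in the table, 16 received a count in any library, and the highest count was 28. The levels of the host genes above therefore say nothing of the mature snoRNAs.

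Of all subgroups the box H/ACA core had the largest SD of the log2 fold changes at 24 h, 0.41, which rests on NOP10. Its range, -0.96 to -0.09, was narrower than those of UTP-B (-1.42 to -0.42) and the large subunit factors (-1.54 to -0.49). Dyskerin (DKC1, ENSG00000130826), the pseudouridine synthase, had 62.8, 63.9 and 62.9 FPKM in the control, 67.3, 65.5 and 64.5 FPKM after 30 min and 37.3, 36.3 and 36.8 FPKM after 24 h. DKC1 was thus slightly higher in each 30 min library than in any control and clearly lower in each 24 h library, with a log2 fold change at 24 h of -0.83 ± 0.05 (adjusted p = 2.19e-11). NHP2 (ENSG00000145912), an RNA-binding core subunit, had 112, 120 and 109 FPKM in the control, 121, 122 and 115 FPKM after 30 min and 61.2, 61.7 and 58.0 FPKM after 24 h. The fall of NHP2 at 24 h was -0.96 ± 0.06 on the log2 scale (adjusted p = 1.71e-11), and 28.0% of its exon bases overlap RMND5B on the other strand. GAR1 (ENSG00000109534), the subunit that helps load and release the RNA substrate, had 37.7, 34.0 and 32.2 FPKM in the control, 36.3, 39.5 and 31.5 FPKM after 30 min and 19.7, 18.8 and 18.6 FPKM after 24 h. For GAR1 the 30 min group overlapped the control and the 24 h group did not, with a log2 fold change of -0.91 ± 0.08 (adjusted p = 4.30e-09).

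NOP10 (ENSG00000182117), the small subunit that bridges dyskerin and NHP2, was the exception of the subgroup and of the whole set. It had 126, 134 and 131 FPKM in the control, 137, 125 and 124 FPKM after 30 min and 126, 123 and 131 FPKM after 24 h. The 3 groups overlapped throughout, and the log2 fold change at 24 h was -0.09 ± 0.07, with a 95% interval from -0.23 to 0.05 and an adjusted p of 0.276. That interval lies within a change of 1.5-fold and does not overlap the intervals of DKC1, NHP2 and GAR1. The ratio of NOP10 to DKC1 in FPKM was 2.06 ± 0.0423 in the control, 1.96 ± 0.0741 after 30 min and 3.45 ± 0.109 after 24 h (SD, n = 3). Likewise NOP10 to NHP2 went from 1.15 ± 0.0438 to 2.11 ± 0.140, and NOP10 to GAR1 from 3.78 ± 0.374 to 6.68 ± 0.354, whereas GAR1 to DKC1 was 0.548 ± 0.0458 and 0.516 ± 0.0115. NHP2 to DKC1 went from 1.80 ± 0.0709 to 1.64 ± 0.0602, with all 24 h libraries below all controls. NOP10 was singled out for its value, so these ratios are given as a description. With 551 bases, as implied by its counts and FPKM, it is also the shortest of the members.

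**Figure D3:**
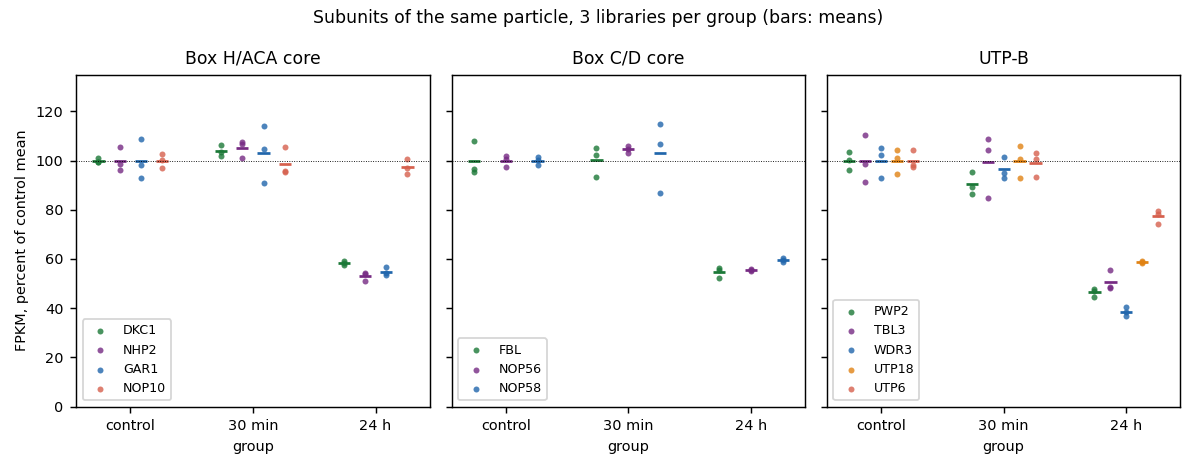
Level in each library as a percentage of the gene's control mean for the subunits of the box H/ACA core, the box C/D core and UTP-B, with 3 points per group and a bar at the mean. At 24 h NOP10 stays at 97.4% while DKC1, NHP2 and GAR1 stand at 58.3%, 53.1% and 54.9%, and UTP6 stands at 77.3% while WDR3 is at 38.6%.

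The 3 abundant nucleolar proteins with wide roles in rRNA transcription, chaperoning and export were down-regulated. Nucleolin (NCL, ENSG00000115053), which binds nascent precursor rRNA, had 292, 284 and 289 FPKM in the control, 293, 299 and 282 FPKM after 30 min and 136, 136 and 138 FPKM after 24 h. The 24 h libraries of NCL were nearly equal to each other and under all others, with a log2 fold change of -1.13 ± 0.05 (adjusted p = 2.68e-14). NOLC1 (ENSG00000166197), a chaperone of snoRNPs, had 149, 139 and 149 FPKM in the control, 138, 150 and 143 FPKM after 30 min and 67.7, 69.3 and 66.4 FPKM after 24 h. Its log2 fold change was -1.15 ± 0.05 (adjusted p = 9.02e-14), again without overlap. Nucleophosmin (NPM1, ENSG00000181163), a histone and ribosomal protein chaperone with the highest level of the set, had 499, 478 and 482 FPKM in the control, 518, 523 and 441 FPKM after 30 min and 326, 322 and 331 FPKM after 24 h. Its groups at 24 h and control did not overlap either, but the log2 fold change was smaller, at -0.62 ± 0.06 (adjusted p = 6.98e-09). NPM1 has 49 pseudogenes in the table that together hold up to 4.67% of the counts of gene and pseudogenes combined. The call of NPM1 was lost under 4 alternative settings besides the larger fold threshold.

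UTP-A, the module that joins the precursor first, fell as a whole, with 6 of 6 subunits called and a median log2 fold change of -1.03. WDR43 (ENSG00000163811) had the largest fall of the module, with 60.8, 55.0 and 57.0 FPKM in the control, 53.8, 57.7 and 54.4 FPKM after 30 min and 23.0, 22.6 and 22.1 FPKM after 24 h. The log2 fold change of WDR43 was -1.40 ± 0.06 (adjusted p = 1.54e-14). The smallest fall was that of WDR75 (ENSG00000115368), which had 37.4, 35.4 and 35.4 FPKM in the control, 32.9, 36.0 and 31.0 FPKM after 30 min and 20.6, 22.0 and 20.4 FPKM after 24 h. Even there the 24 h libraries lay apart from both other groups, with a log2 fold change of -0.83 ± 0.06 (adjusted p = 2.46e-10). The other subunits UTP4, UTP15, HEATR1 and NOL11 stood at 45.1% to 54.7% of control, and 23.1% of the exon bases of HEATR1 overlap LGALS8 on the other strand.

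UTP-B, which bridges the module above and the U3 snoRNP, had 4 of 5 subunits called and the same median of -1.03, with log2 fold changes from -1.42 to -0.42. WDR3 (ENSG00000065183) had 19.2, 17.5 and 19.7 FPKM in the control, 17.8, 19.1 and 17.4 FPKM after 30 min and 7.24, 7.59 and 6.92 FPKM after 24 h. All 24 h libraries of WDR3 were far below the others, and its log2 fold change was -1.42 ± 0.06 (adjusted p = 5.08e-14). UTP6 (ENSG00000108651) had 16.9, 15.8 and 16.0 FPKM in the control, 16.3, 16.7 and 15.2 FPKM after 30 min and 12.03, 12.7 and 12.9 FPKM after 24 h. The groups of UTP6 did not overlap at 24 h and its adjusted p was 5.54e-06, but the log2 fold change of -0.42 ± 0.06 was under the threshold of 1.5-fold. The ratio of UTP6 to WDR3 in FPKM therefore went from 0.866 ± 0.0511 to 1.73 ± 0.116 (SD, n = 3). PWP2, TBL3 and UTP18 lay between, at 46.5%, 50.7% and 58.7% of control.

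In the MPP10 and U3 module, which holds the U3 snoRNA on the precursor, 4 of 4 members were called and the median of -0.78 was the mildest of all subgroups. IMP4 (ENSG00000136718), which helps U3 to pair with the precursor, had 46.3, 49.9 and 48.2 FPKM in the control, 51.5, 45.3 and 53.1 FPKM after 30 min and 23.9, 25.2 and 25.6 FPKM after 24 h. The log2 fold change of IMP4 was -0.999 ± 0.07 (adjusted p = 5.33e-11). MPHOSPH10 (ENSG00000124383), the protein after which the module is named, had 21.6, 19.6 and 20.8 FPKM in the control, 23.1, 24.3 and 16.7 FPKM after 30 min and 14.7, 14.2 and 13.4 FPKM after 24 h. The 30 min libraries of MPHOSPH10 spread more than those of any other member in that group, and its log2 fold change of -0.60 ± 0.10 (adjusted p = 1.38e-05) was just past the threshold. Without control replicate 1, or without 24 h replicate 3, it was -0.58 and was not called. The pseudogenes of MPHOSPH10 held up to 1.32% of the counts of gene and pseudogenes combined. IMP3 and RRP9, a partner of IMP4 and a U3 protein, stood at 63.2% and 57.1% of control.

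The 8 other processome proteins were all called, with a median of -0.89 and a range from -1.44 to -0.61. UTP20 (ENSG00000120800), a very large scaffold protein, had 11.9, 10.0 and 11.5 FPKM in the control, 10.2, 11.4 and 10.1 FPKM after 30 min and 4.37, 4.28 and 4.09 FPKM after 24 h. This was the only member of the subgroup that was at least 2-fold lower, at -1.44 ± 0.07 (adjusted p = 4.60e-13). DCAF13 (ENSG00000164934), a WD-repeat subunit, had 24.6, 23.8 and 23.5 FPKM in the control, 25.9, 25.9 and 23.0 FPKM after 30 min and 16.1, 16.8 and 15.9 FPKM after 24 h. Its fall of -0.61 ± 0.06 (adjusted p = 2.31e-08) was the smallest called in the subgroup, although its groups did not overlap, and it too missed 1.5-fold under several other scalings. EMG1, the methyltransferase of the small subunit rRNA, NOP14, UTP14A, NOL6, RCL1 and the GTPase BMS1 stood at 52.2% to 65.2% of control. BMS1 has 16 pseudogenes in the table with up to 8.28% of the counts of gene and pseudogenes combined. For EMG1, 55.5% of the exon bases overlap LPCAT3 on the other strand.

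Late small subunit factors act on the particle as it leaves the nucleolus, and 5 of 5 were called, with a median of -0.98. TSR1 (ENSG00000167721), a factor related to GTPases that blocks early use of the subunit, had 35.0, 34.6 and 36.9 FPKM in the control, 34.0, 37.0 and 35.2 FPKM after 30 min and 15.5, 16.7 and 15.9 FPKM after 24 h. Its log2 fold change was -1.20 ± 0.06 (adjusted p = 2.74e-13), and 23.9% of its exon bases overlap SRR on the other strand. BYSL (ENSG00000112578), which binds the pre-ribosome, had 34.3, 35.9 and 34.8 FPKM in the control, 36.2, 33.2 and 36.2 FPKM after 30 min and 18.5, 19.5 and 21.0 FPKM after 24 h. With -0.88 ± 0.07 (adjusted p = 7.76e-10) this was the smallest fall of the subgroup. NOB1, the nuclease that makes the final cut at the end of the small subunit rRNA, stood at 52.3% of control, beside LTV1 at 55.8% and RRP12, an export factor, at 51.6%.

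Among the member subgroups, the large subunit factors had the lowest median, -1.20, with 11 of 12 called and 8 at least 2-fold lower. In the wider list described below, large and small subunit factors both had a median of -0.71, so this order was not seen there. DDX21 (ENSG00000165732), an RNA helicase of the nucleolus, had 126, 111 and 128 FPKM in the control, 113, 125 and 105 FPKM after 30 min and 42.7, 44.9 and 42.2 FPKM after 24 h. This was the largest fall of the set, -1.54 ± 0.06 (adjusted p = 2.84e-14), with no overlap between control and 24 h. GNL2 (ENSG00000134697), a GTPase of the pre-large subunit, had 27.8, 28.0 and 28.8 FPKM in the control, 29.3, 29.6 and 28.5 FPKM after 30 min and 21.5, 20.4 and 20.4 FPKM after 24 h. Here too the groups lay apart, and the adjusted p was 9.15e-08, but the log2 fold change of -0.49 ± 0.05 did not reach 1.5-fold. Its relative GNL3 (nucleostemin) was called, at 60.1% of control, and the ratio of GNL2 to GNL3 was 0.328 ± 0.00427 in the control and 0.402 ± 0.0169 at 24 h (SD, n = 3).

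A cluster of large subunit factors lay near DDX21. NOP16 stood at 36.7% of control, RRS1, which brings the 5S particle into the subunit, at 37.7%, LYAR at 37.8%, MRTO4, which holds the place of the stalk proteins, at 39.4%, and NIP7 at 41.7%. The scaffold proteins PES1 and WDR12 of the PeBoW complex stood at 49.1% and 52.8%, the rRNA methyltransferase NOP2 at 59.7% and RRP1B at 48.9%. Of these NOP16 and NIP7 overlap another gene of the table by over 10% of their exon bases, on the opposite strand, by 12.3% with ARL10 and by 18.4% with COG8.

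The size of the fall had almost no rank relation to how abundant a member was. Across the 50 genes, the control level in log2 FPKM and the log2 fold change at 24 h had Pearson's r = 0.033 and Spearman's rho = 0.0087, and length and log2 fold change had rho = -0.12. The rank of the members was held, since control and 24 h levels had r = 0.975. These coefficients are across genes of the same libraries, which are not independent replicates.

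After 30 min, 0 of the 50 members were called in either direction by edgeR, against a background of 0.544% of 11587 genes called lower and 0.0949% called higher. DESeq2 and limma also called 0. At an unadjusted p below 0.05 there were 2 members, against 11.1% of all genes tested, and the median log2 fold change was 0.02. PWP2 had 22.3, 23.2 and 24.0 FPKM in the control and 20.6, 20.0 and 22.1 FPKM after 30 min, with a log2 fold change of -0.13 ± 0.06 (adjusted p = 0.362). NIP7 had 27.1, 28.1 and 27.3 FPKM in the control and 25.3, 25.8 and 23.3 FPKM after 30 min, at -0.14 ± 0.06 (adjusted p = 0.426). In both genes the 2 groups did not overlap, yet neither difference passed the adjustment. All 30 min libraries lay below all controls for 4 members (PWP2, EMG1, LTV1 and NIP7), and above them for 3 (NOP56, DKC1 and NOP14), against 8.91% and 4.89% of all genes tested.

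The precision at 30 min was enough to bound the change. For each of the 50 members the 95% interval of the log2 fold change lay within 1.5-fold in both directions, the outermost bounds being -0.32 and 0.26. Within the 30 min group replicate 3 was the lowest library for 30 of the 50 members and replicate 2 the highest for 32. The median coefficient of variation between libraries was 5.24% in that group, 3.81% in the control and 3.33% at 24 h. The members' deviation from their group mean ran with gene length to a varying degree, with rho across the members from -0.57 in control replicate 2 and -0.43 in 30 min replicate 1 to 0.44 in control replicate 3, and from -0.32 to 0.25 across all genes in the same libraries. Leaving out any single library of a comparison left 46 or 47 members called lower at 24 h and 0 at 30 min.

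**Figure D4:**
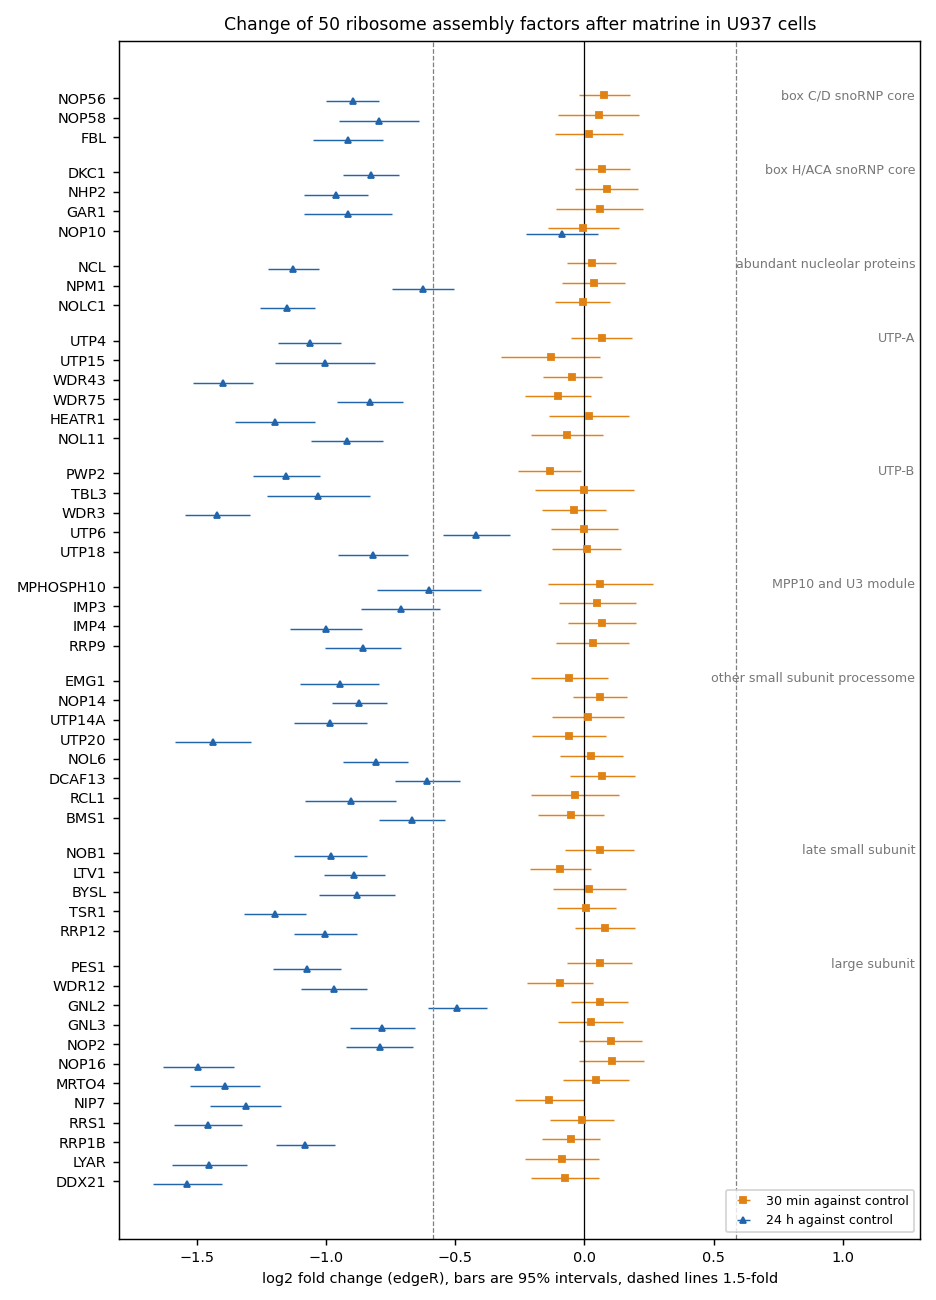
Log2 fold change (edgeR) with 95% interval of each of the 50 members after 30 min (orange squares) and 24 h (blue triangles) against control, with dashed lines at 1.5-fold. All 30 min intervals stay inside the dashed lines, and at 24 h all members but NOP10, UTP6 and GNL2 have estimates beyond the lower line.

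MYC mRNA, which encodes c-Myc, had a different course. It stood at 207 ± 5.10 FPKM in the control, 54.1 ± 4.58 FPKM after 30 min and 43.8 ± 2.03 FPKM after 24 h (SD, n = 3). The log2 fold change of MYC was -1.93 ± 0.06 after 30 min (adjusted p = 2.67e-14) and -2.29 ± 0.06 after 24 h (adjusted p = 2.66e-17). In the 30 min libraries MYC was thus lower while none of the 50 members was called, and these groups show no more than that order in time.

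Compared directly, 24 h against 30 min gave 47 of 50 members lower and 0 higher, against 11.5% and 15.4% of 11981 genes tested, with a median of -0.97 and a range from -1.62 (NOP16) to -0.10 (NOP10). The 3 members not called were again NOP10, UTP6 and GNL2. This comparison shares its 24 h libraries with the one against control, so the pair is not independent.

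A wider list of 125 other ribosome assembly genes was read beside the members, of which 120 were matched and 118 tested. At 24 h 74 of the 118 were down-regulated and 0 up-regulated, with a median log2 fold change of -0.71, and at 30 min 0 were called by edgeR or DESeq2, with 6 at an unadjusted p below 0.05. By class, 24 of 36 small subunit factors, 35 of 55 large subunit factors, 8 of 17 exosome and trimming genes and 7 of 10 snoRNP assembly genes were called lower at 24 h. The largest falls were those of RUVBL1, an ATPase of the R2TP complex that assembles snoRNPs, at -1.52 ± 0.06 (adjusted p = 6.98e-15), of EBNA1BP2, a large subunit scaffold, at -1.41 ± 0.06 (adjusted p = 7.74e-14), and of PNO1, the partner of NOB1, at -1.34 ± 0.07 (adjusted p = 3.26e-12). Only RIOK3 and NOP53 had estimates above 0, at 0.56 ± 0.08 (adjusted p = 2.43e-06) and 0.31 ± 0.06 (adjusted p = 0.000278), and neither reached 1.5-fold. Both were named after their values were seen. The study's own list of 36 ribosome biogenesis genes, chosen on these samples, holds 21 of the members, so the direction of those 21 is not independent evidence.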

How the data were processed

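RNA-seq libraries of U937 cells were made by the authors with an mRNA library kit and sequenced in pairs. Per the submitters' processing notes, reads were trimmed with cutadapt 1.9.1, mapped with HISAT2 2.0.1 and counted per gene with HTSeq 0.6.1. The notes name GRCh37 and the paper's methods name hg38; the table holds identifiers without coordinates, so coordinates printed are those of GRCh38 by identifier or of RefSeq. The annotation release and strand setting are not given in the sources used here. The authors deposited unnormalized counts and FPKM values, the latter equal to each count divided by gene length and library total. Of 57905 identifiers, 51996 were found in GENCODE 44.

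Counts of the 9 libraries were fitted together with edgeR 4.0.16 (R 4.3.3, TMM normalization, quasi-likelihood test, Benjamini-Hochberg adjustment over all genes tested). Genes with a mean FPKM above 1 over the 6 libraries compared were tested, and calls required 1.5-fold or more together with an adjusted p under 0.05. The standard error of a log2 fold change is its size divided by the square root of F. DESeq2 1.42.0 and limma 3.58.1 were alternatives. Other filters, fold thresholds, scalings, a replicate block and leaving out each library were also tried. On simulated data 184 of 200 genes changed 2-fold among 12035 were recovered at 24 h against control, with 0 false calls. The simulation took its spread from these data and changed equal numbers of genes up and down. In the data far more genes were called, 1344 lower and 1820 higher, so its error rate need not carry over to them. Library totals were 17314931 to 21930018. Replicates differed by more than sampling noise, and the study's methods call its replicates independent in general, without saying for these libraries whether they were separate cultures, so p-values measure the spread between these libraries, which may be technical. An exact permutation test of 3 against 3 gives no p below 0.1. The members, the other lists and the tests were chosen with earlier results of these data known. Values per library are given for the snoRNP core and abundant nucleolar proteins, for the largest and smallest change of each other subgroup, and for members not called at 24 h. From the other assembly genes the rule took the 3 largest falls. The genes BOP1, AATF, DDX52, NOL12 and ZNHIT3 were not matched, and DDX47 and RBM34 were below the filter.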

Additional observations from a re-analysis of the deposited data

Results flagged for a closer look

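The members' levels differed between the 2 times of matrine treatment, tested directly as 24 h against 30 min by edgeR's quasi-likelihood method (Benjamini-Hochberg adjusted). The difference passed the threshold, toward lower levels at 24 h, for 47 of the 50 members. Treatment time and time in culture cannot be told apart here. The values below are log2 fold changes of 24 h over 30 min.

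In the snoRNP cores they were -0.99 for NOP56, -0.87 for NOP58, -0.95 for FBL, -0.92 for DKC1, -1.07 for NHP2 and -0.99 for GAR1. The abundant proteins NCL, NPM1 and NOLC1 stood at -1.17, -0.68 and -1.16.

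In the UTP-A module UTP4 had -1.15, UTP15 -0.89, WDR43 -1.37, WDR75 -0.75, HEATR1 -1.23 and NOL11 -0.87. In UTP-B the values were -1.04 for PWP2, -1.05 for TBL3, -1.40 for WDR3 and -0.85 for UTP18. The MPP10 and U3 module had -0.68 for MPHOSPH10, -0.78 for IMP3, -1.09 for IMP4 and -0.91 for RRP9.

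Among the other processome proteins EMG1 had -0.91, NOP14 -0.95, UTP14A -1.02, UTP20 -1.40, NOL6 -0.85, DCAF13 -0.70, RCL1 -0.89 and BMS1 -0.63. The late small subunit factors had -1.06 for NOB1, -0.82 for LTV1, -0.92 for BYSL, -1.22 for TSR1 and -1.10 for RRP12.

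Large subunit factors had -1.15 for PES1, -0.89 for WDR12, -0.83 for GNL3, -0.91 for NOP2, -1.62 for NOP16, -1.46 for MRTO4, -1.20 for NIP7, -1.47 for RRS1, -1.05 for RRP1B, -1.38 for LYAR and -1.48 for DDX21.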

How the results depend on the processing

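The fold threshold moved the counts most. With 2-fold required, 20 members were lower at 24 h against control, 23 at 24 h against 30 min, and 18 of the other assembly genes at 24 h. Under all other alternatives between 43 and 49 members were called at 24 h against control, 43 of them in each, and 0 at 30 min under every alternative. The calls lost were those of MPHOSPH10, DCAF13, NPM1 and BMS1, whose adjusted p stayed below 0.05 while the fold fell under 1.5. The members' median at 24 h was -1.02 with no filter, -0.90 with a mean FPKM above 5, -0.91 with library totals alone, -0.92 with upper quartile scaling, -0.90 with limma on log2(FPKM + 0.1) and -0.84 with limma on log2(FPKM + 1). Of the other assembly genes 2 were higher with no fold threshold and 1 with a mean FPKM above 5, library totals alone, upper quartile scaling or limma with a pseudocount of 0.1. Without 1 library at a time that count was 0 to 1, and it was 1 without 24 h replicate 3. No result reversed. Leaving out replicates gave 46 to 47 members at 24 h against control and 46 to 48 at 24 h against 30 min.

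The replicate block left 47 members lower at 24 h and 0 at 30 min. No pairing by replicate number was detected. Correlations of same-numbered libraries lay between -0.159 and 0.103, and 6 of 18 best matches had the same number. With so few libraries this cannot show whether same-numbered libraries shared a culture.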
